A study of Mus musculus with 6 samples.

Results

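Rn7sk is the gene of 7SK RNA, a small nuclear RNA, and its contact with HNRNPA2B1 was mapped in C2C12 cells before and after differentiation. Rn7sk peaks were chosen by their position in the deposited peak lists: peaks on the minus strand of chromosome 9 lying wholly within chr9:78023050-78023500 of the mm9 build, the window given for Rn7sk. The presence and the place of the peaks are therefore what chose them, and both are descriptions. The window held 25 of the 3895 peaks in the 4 lists.

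The lists come from eCLIP, in which UV light fixes a protein to the RNA it touches, an antibody pulls the protein down and the attached RNA fragments are sequenced. C2C12 is a mouse myoblast line, here grown in medium with 20% FBS for the undifferentiated state (C2C12, IP replicates A and B) and moved at confluence to 5% horse serum with ITS for the differentiated state (C2C12diff, IP replicates A and B). All libraries used the same antibody against hnRNP A2B1. The labels give 8 to 10 days of differentiation and nuclear isolation before the IP, whereas the methods of the study give fewer days and a whole-cell lysis, so the compartment and the length of differentiation are not settled. The states are bulk cultures of 1 cell line, and differentiated cultures can still hold unfused cells. Each state also had 1 labelled input sample, whose reads enter here only through the enrichment values. The methods describe 1 input for each replicate instead, and which applies is not settled. If both replicates of a state were scored against the same input, their log2 fold enrichments share its error, and the spread between replicates given below leaves that error out.

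7SK RNA is made by RNA polymerase III and stays mostly in the nucleus. With LARP7, MEPCE and HEXIM proteins it holds the elongation kinase P-TEFb in an inactive complex, and when P-TEFb is released the RNA is found with hnRNP proteins, among them HNRNPA1 and HNRNPA2B1. HEXIM binds near the 5′ end of the RNA and LARP7 near its 3′ end. Muscle gene activation by MyoD uses the kinase that 7SK RNA restrains.

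The sequence below is the part of the RNA that can hold the peaks. It was taken by gene name from GENCODE release M21, where Rn7sk is a gene of a single exon on the minus strand at chr9:78175303-78175633 of GRCm38, 331 nt long. RefSeq gives 332 nt, with 1 more nucleotide at the 3′ end. The peak lists are in mm9 and no mm9 sequence was used, so the sequence could not be read at the peaks themselves. The place of the peaks was limited from lengths alone. If the whole 331 nt RNA lies in the window and holds every covered nucleotide, its 5′ end lies between 78023380 and 78023443 in mm9, which leaves 64 placements. The covered stretch then starts between positions 147 and 210 of the RNA and ends between positions 268 and 331. With the RefSeq length these limits move by at most 1 nt. Positions 147 to 331 are shown, 5′ to 3′, in DNA letters, with each UAG (written TAG) in capitals because this is a motif that HNRNPA2B1 is known to bind.

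Rn7sk: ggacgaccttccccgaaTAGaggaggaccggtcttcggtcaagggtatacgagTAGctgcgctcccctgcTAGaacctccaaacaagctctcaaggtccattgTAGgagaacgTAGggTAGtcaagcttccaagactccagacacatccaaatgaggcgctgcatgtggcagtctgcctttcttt

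The RNA held 7 UAG motifs, starting at positions 76, 164, 200, 217, 250, 260 and 265, and 6 of them were in the printed part. On the opposite strand UAG occurred 2 times, at positions 75 and 216, each overlapping a motif of the RNA strand by 2 nt. Of 129282 GENCODE transcripts at least as long as Rn7sk, 68.2% held at least 1 UAG between the same positions and 0.724% held at least 6. These transcripts were not limited to noncoding RNAs and were not matched for base composition, so the shares are a rough background only. They belong to all 185 printed nt, of which the peaks covered at most 122, and no background was made for the covered stretch. Under any of the 64 placements the stretch covered by peaks contained 4 to 6 UAG. The 26 nt shared by the strongest peak of all 4 lists contained 0 to 3, and 0 under 25 of the 64 placements. The rest of the stretch covered in all 4 lists contained 2 to 5. A match is a description of the letters and does not place a contact.

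**Figure D1:**
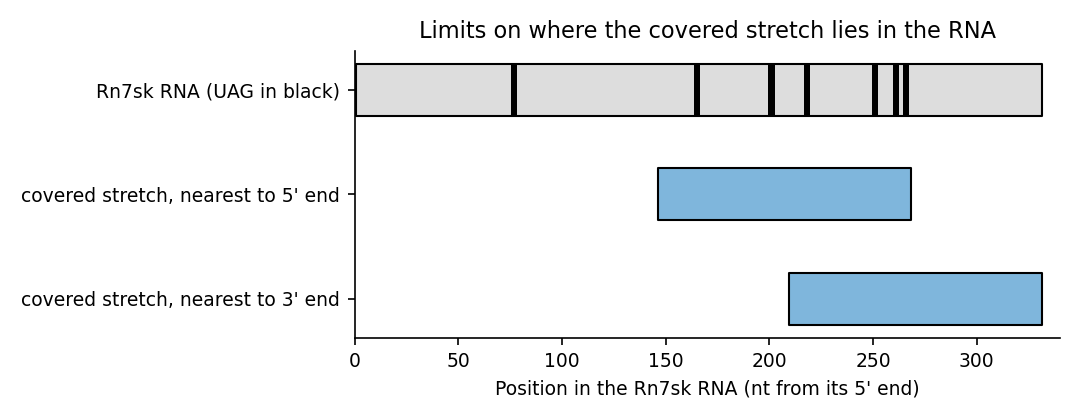
Map of the 331 nt Rn7sk RNA (x axis, nt from the 5′ end) with its 7 UAG motifs in black, and the 122 nt stretch covered by peaks drawn at the outermost placements that the lengths allow. In the placement nearest the 5′ end the stretch runs from 147 to 268, and in the placement nearest the 3′ end from 210 to 331.

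HNRNPA2B1 peaks lay on the same stretch of Rn7sk in all 4 libraries. C2C12 replicate A had 5 peaks and replicate B had 8, and each C2C12diff replicate had 6. The mean was 6.5 ± 2.12 in C2C12 and 6.0 ± 0 in C2C12diff (SD, n = 2 each), and the C2C12 replicates differed from each other by more than the states did. In each list the peaks touched end to end with no gap, so each library had 1 unbroken stretch. It ran from 78023134 to 78023227 in both C2C12 lists, a length of 94 nt. It ran from 78023129 to 78023234 in C2C12diff A (106 nt) and from 78023113 to 78023232 in C2C12diff B (120 nt). The 3′ end of the RNA is at the low coordinate, so the C2C12diff stretches reached 5 and 21 nt further in the 3′ direction, and 7 and 5 nt further in the 5′ direction. Covered length was 113 ± 9.90 nt in C2C12diff against 94.0 ± 0 nt in C2C12 (SD, n = 2 each). The window held no plus-strand peak in any list. The nearest other peak on the same strand was 4845168 nt away or further in each list, so no peak lay just outside the window.

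A position in the covered stretch is counted below from 1 at the 5′-most nucleotide covered in any list (78023234) to 122 at the 3′-most (78023113). Of these 122 nt, 94 were covered in all 4 lists (positions 8 to 101), 10 in 2 lists and 18 in 1 list. The 94 shared nucleotides were the whole C2C12 stretch. Within it the peak caller had set 12 different boundaries between neighbouring peaks, of which 1 was the same in all 4 lists, 2 in 3 lists, 2 in 2 lists and 7 in a single list. The boundary found in all 4 lists lay between positions 69 and 70. Elsewhere the boundaries of all 4 lists fell within 1 nt of each other just 5′ of position 61 (3 lists) or 62 (C2C12 B). They did so again just 5′ of position 75 (C2C12 A and C2C12diff A) or 76 (C2C12 B and C2C12diff B).

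**Figure D2:**
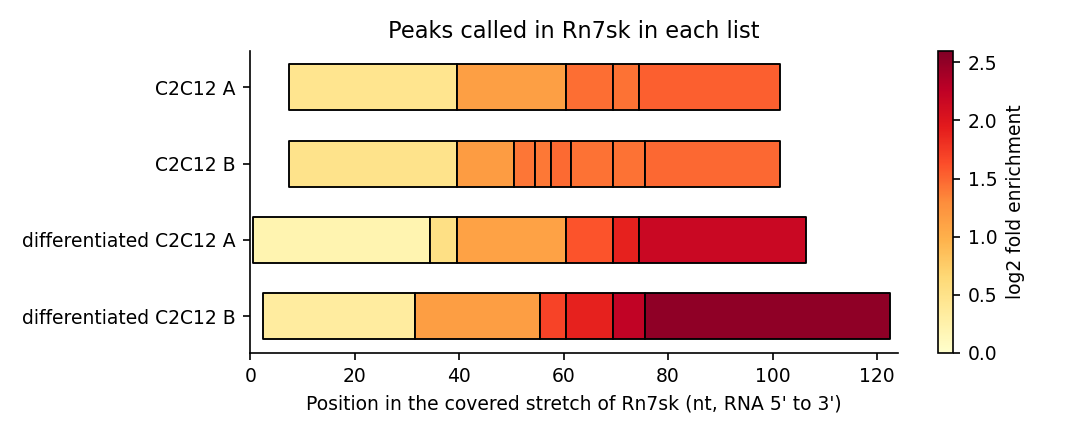
Peaks in Rn7sk in each of the 4 lists, drawn to scale along the covered stretch (x axis, nt, 5′ to 3′ of the RNA) and coloured by the log2 fold enrichment of IP over input. The colour deepens from the 5′ to the 3′ side in every list, and the 3′-most peak is darker in both C2C12diff lists (2.17 and 2.52) than in both C2C12 lists (1.54 and 1.49).

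Replicates agreed closely on where the stretch lay. In C2C12, 94 of the 94 nt covered in either replicate were covered in both (100%). In C2C12diff, 104 of 122 nt were (85.2%). Each list had 1 unbroken stretch, so these shares rest on its outer ends and not on separate nucleotides. With 1 pair of replicates per state they are given without an interval. Over the whole lists, which also count sites found in only 1 replicate, the same share was 54.6% in C2C12 and 28.0% in C2C12diff. Counted by peaks, all 13 Rn7sk peaks of C2C12 and all 12 of C2C12diff overlapped a peak of the other replicate by at least 1 nt. Over all peaks that share was 87.2% for C2C12 A and 88.5% for C2C12 B, and 72.0% for C2C12diff A and 67.0% for C2C12diff B. The Rn7sk peaks of a list are divisions of 1 unbroken stretch, so the 13 and 12 stand for 1 site and not for separate ones. Identical start and end were rarer, with 1 such Rn7sk peak shared between the replicates of each state. As a share of the peaks of both replicates this was 15.4% in C2C12 and 16.7% in C2C12diff. Over all peaks the share was 17.2% in C2C12 and 5.17% in C2C12diff.

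The site was also kept between the states. All 13 C2C12 peaks in Rn7sk overlapped a peak of both C2C12diff lists, where 63.5% of all C2C12 peaks did. All 12 C2C12diff peaks overlapped a peak of both C2C12 lists, where 32.9% of all C2C12diff peaks did. Both C2C12diff stretches contained the whole C2C12 stretch without a gap, so no C2C12 peak could fail to overlap. The 13 and 12 peaks are divisions of 1 site and not separate observations to set against the whole-list shares. By nucleotides, C2C12 and C2C12diff A shared 88.7% of what either covered, and C2C12 and C2C12diff B shared 78.3%, with the same value for each C2C12 replicate. The mean over the 4 pairs was 83.5%, and over the whole lists these pairs shared 10.7% to 12.1%. The whole-list share also counts sites absent from 1 list of a pair, and only 53 of the 638 loci described below had a peak in all 4 lists. Whether Rn7sk was kept better than other loci present in all 4 lists was not tested. C2C12 A and C2C12diff A had 3 identical Rn7sk peaks, more than the 1 found between replicates of a state. The other pairs of lists from different states had 0 or 1. As a share of the peaks of both lists, the 3 made up 54.5%, where 6.50% of all peaks of C2C12 A and C2C12diff A were identical. That whole-list share was 17.2% for the C2C12 replicates and 5.17% for the C2C12diff replicates. The 6.50% for C2C12 A and C2C12diff A was therefore lower than the share between C2C12 replicates and higher than that between C2C12diff replicates. Since peak presence chose the member, these shares are given without a test.

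Enrichment of IP over size-matched input was higher on the 3′ side of the stretch than on the 5′ side in each of the 4 libraries. The authors' log2 fold enrichment is used here, on which 1 is a doubling of IP reads relative to input. C2C12 A had log2 fold enrichments of 0.46, 1.14, 1.46, 1.43 and 1.54 in its 5 peaks from 5′ to 3′. C2C12 B had 0.50, 1.18, 1.42, 1.41, 1.48, 1.44, 1.44 and 1.49 in its 8 peaks. In both C2C12 lists the weakest peak was the 5′-most, and the peaks beyond position 61 lay close together, at 1.43 to 1.54 in replicate A and 1.44 to 1.49 in replicate B.

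In C2C12diff A the log2 fold enrichments were 0.20, 0.53, 1.12, 1.60, 1.90 and 2.17 from 5′ to 3′. In C2C12diff B they were 0.34, 1.15, 1.69, 1.91, 2.24 and 2.52. In both C2C12diff lists each of the 5 steps from one peak to the next was upwards, and in C2C12 A 3 of 4 steps and in C2C12 B 4 of 7 steps were. Spearman's rho of position and log2 fold enrichment over the peaks of a list, which are neighbours on 1 RNA, was 0.90 over 5 peaks in C2C12 A and 0.88 over 8 in C2C12 B. It was 1 over the 6 peaks of each C2C12diff list. From the weakest to the strongest Rn7sk peak the log2 fold enrichment spanned 1.08 and 0.99 in C2C12 and 1.97 and 2.18 in C2C12diff. The mean span was 1.04 ± 0.06 and 2.07 ± 0.15 (SD, n = 2 each), and the ranges of the states did not overlap.

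**Figure D3:**
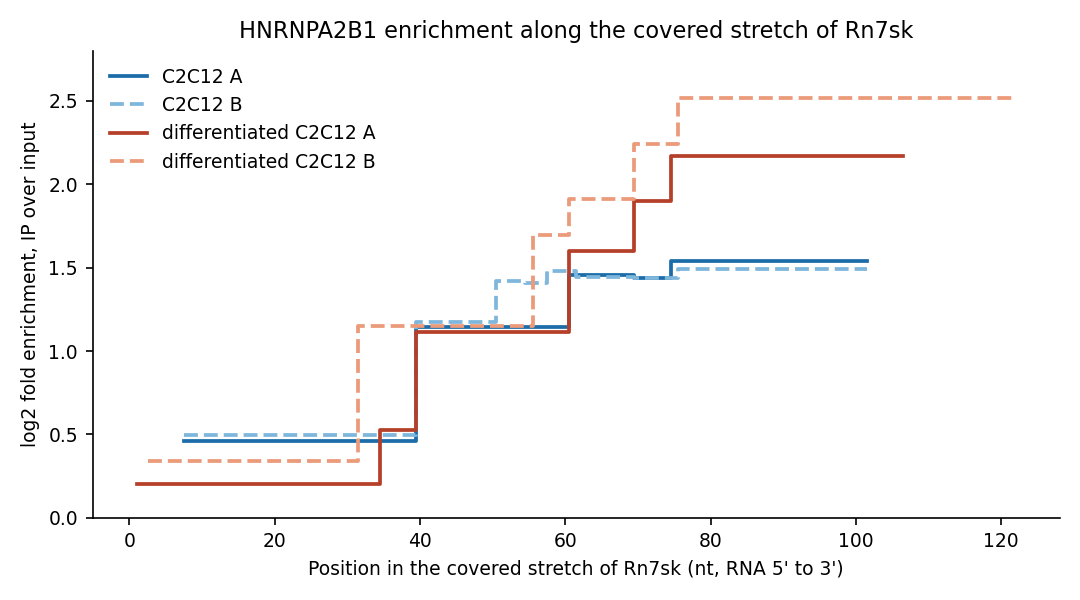
Log2 fold enrichment of IP over input (y axis) at each covered nucleotide of Rn7sk (x axis, nt, 5′ to 3′), as the value of the peak that covers it, with 1 line for each of the 4 libraries. All lines are higher at the right than at the left. The C2C12 lines level off near 1.5, the C2C12diff lines go on to 2.17 and 2.52, and on the 5′ side the C2C12diff lines start below the C2C12 lines.

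The states differed most at the 3′ side. The top peak of each list was its 3′-most one, with a log2 fold enrichment of 1.54 in C2C12 A and 1.49 in C2C12 B. It was 2.17 in C2C12diff A and 2.52 in C2C12diff B. As folds these were 2.91 and 2.81 in C2C12 and 4.50 and 5.73 in C2C12diff, so the states did not overlap. The mean log2 value was 1.52 ± 0.04 in C2C12 and 2.34 ± 0.25 in C2C12diff (SD, n = 2 each), a difference of 0.83, or 1.78-fold. By exact two-sided permutation p was 0.333, the smallest that 2 libraries against 2 allow, so no difference between the states could pass 0.05. The value is a ratio of IP to input, so more IP reads and fewer input reads from Rn7sk cannot be told apart, nor, in bulk cultures, more cells with bound RNA and more bound RNA per cell. The C2C12diff top peaks also covered 5 and 21 nt that no C2C12 peak covered.

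Averaged over all covered nucleotides the states were closer. This length-weighted log2 fold enrichment was 1.07 and 1.10 in C2C12 and 1.19 and 1.62 in C2C12diff. The means were 1.09 ± 0.02 and 1.41 ± 0.31 (SD, n = 2 each), and their difference of 0.32 was close to the SD of C2C12diff (exact two-sided permutation p = 0.333). It rested largely on C2C12diff B, without which the difference was 0.11.

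With each nucleotide given the value of the peak that covers it, the order of the states changed along the stretch. At positions 61 to 101, 41 nt, both C2C12diff libraries lay above both C2C12 libraries, with mean log2 fold enrichments of 2.01 and 2.34 against 1.51 and 1.47, a mean difference of 0.69. At positions 8 to 31, 24 nt on the 5′ side, both C2C12 libraries lay above both C2C12diff libraries, with 0.46 and 0.50 against 0.20 and 0.34, a difference of -0.20. Between them, a block of 5 nt at positions 35 to 39 had both C2C12diff libraries higher (0.53 and 1.15 against 0.46 and 0.50). Only C2C12diff A had a peak of just these 5 nt. The C2C12 values there are of peaks over positions 8 to 39, and that of C2C12diff B is of a peak over 32 to 55. At positions 8 to 31 the C2C12diff peaks also began further 5′, at positions 1 and 3. The order at positions 8 to 39, and its part in the counts below, therefore depends on where the caller divided the stretch. At positions 32 to 34 and 40 to 60 the libraries overlapped, and at 40 to 60 the means were 1.14 and 1.30 in C2C12 and 1.12 and 1.28 in C2C12diff. In all, C2C12diff was higher without overlap at 46 of the 94 shared nucleotides (48.9%) and C2C12 at 24 (25.5%). Over all 5825 nt covered in the 4 lists these shares were 37.0% and 45.6%. Nucleotides of 1 peak have the same value, so the 94 nt stand for 5 to 8 peaks in a list and not for 94 observations.

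Replicates were nearer to each other in C2C12 than in C2C12diff. Over the nucleotides covered in both, the mean absolute difference in log2 fold enrichment was 0.07 between the C2C12 replicates and 0.28 between the C2C12diff replicates. Between libraries of different states it was 0.30 to 0.51. Pearson's r over nucleotides, a description with neighbouring values shared, was 0.978 over 94 nt in C2C12, 0.975 over 104 nt in C2C12diff and 0.881 to 0.974 over 94 nt between states.

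Most Rn7sk peaks had the highest −log10 p of the lists. The authors' −log10 p is that of IP reads against input reads in a peak, and the highest value in any list was 400. It may be a cap, so a value of 400 is not taken as a measured p. This value was listed for 4 of 5 Rn7sk peaks in C2C12 A and 7 of 8 in C2C12 B, where 12.6% and 13.2% of all peaks had it. It was listed for 4 of 6 in C2C12diff A and 5 of 6 in C2C12diff B, where 37.0% and 36.7% of all peaks had it. The peaks below 400 were those on the 5′ side. They had −log10 p of 25.8 in C2C12 A and 30.3 in C2C12 B. In C2C12diff A they had 9.36 and 47.6, and in C2C12diff B the single one had 19.4. A p of this kind depends on the number of reads as well as on the fold, and read numbers were not used here.

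The place of Rn7sk by fold was read within each list. The lists differ in length (594 and 591 peaks in C2C12, 1499 and 1211 in C2C12diff) and in the share of peaks at 400, so these percentages are not compared between the states. The top Rn7sk peak was exceeded by 60.1% of the peaks of C2C12 A and 65.5% of those of C2C12 B. It was exceeded by 37.0% of the peaks of C2C12diff A and 39.1% of those of C2C12diff B. Among peaks with a −log10 p of 400, 77.3% and 84.6% were stronger in C2C12 and 30.9% and 49.3% in C2C12diff. At the other end, the 5′-most Rn7sk peak was among the weakest of each list, with 94.1% and 94.6% of peaks stronger in C2C12 and 99.7% and 99.2% in C2C12diff.

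**Figure D4:**
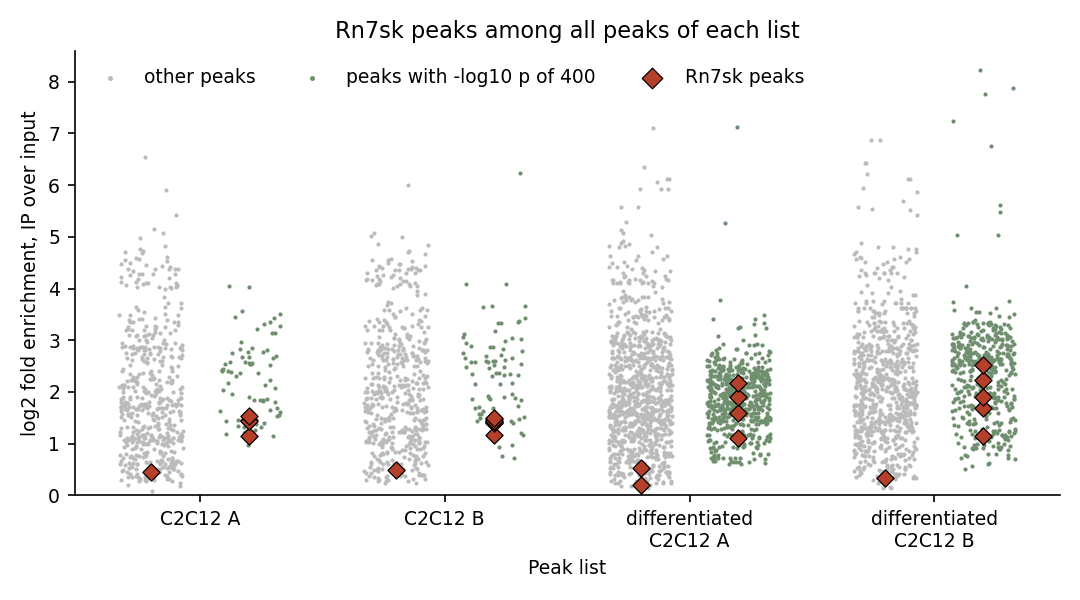
Log2 fold enrichment (y axis) of every peak in each of the 4 lists (x axis), with peaks at a −log10 p of 400 to the right, others to the left, and Rn7sk peaks as diamonds. The top Rn7sk diamond is at 1.54 and 1.49 in the C2C12 lists and at 2.17 and 2.52 in the C2C12diff lists, and the clouds differ in number between the states.

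Rn7sk was then set against the loci found in all 4 libraries, which are the same loci for each list. Peaks of the 4 lists on 1 strand no more than 1 kb apart were joined into 638 loci, of which 53 had a peak in all 4 lists. By its top peak Rn7sk took place 47 of these 53 in both C2C12 lists, place 31 in C2C12diff A and place 26 in C2C12diff B. The difference in the top log2 fold enrichment between C2C12diff and C2C12 had a median of -0.23 over the 53 loci (quartiles -0.94 and 0.44). The value of 0.83 for Rn7sk was exceeded by 7 loci.

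The loci most like Rn7sk were those with the smallest Euclidean distance between the 4 top log2 fold enrichments. The nearest, at a distance of 0.48, lay between 37 and 3915 on the plus strand of mitochondrial DNA, with 1.76 and 1.69 in C2C12 and 2.41 and 2.23 in C2C12diff. The next, at 0.56, lay between 13641 and 14032 on the minus strand, with 1.31 and 1.39 in C2C12 and 2.66 and 2.62 in C2C12diff. The third, at 0.81, lay on chromosome 15 between 53127675 and 53129526, minus strand, with 1.45 and 1.75 in C2C12 and 2.93 and 2.59 in C2C12diff. All coordinates are mm9, and genes at these loci were not named because the annotation used is of another build. The value compared is the highest over all peaks of a locus, and peak numbers differed. In C2C12 A, C2C12 B, C2C12diff A and C2C12diff B, the nearest locus held 14, 11, 113 and 92 peaks. The next held 2, 2, 15 and 8, the third held 1 in each list, and Rn7sk held 5, 8, 6 and 6. Likeness over 4 values says nothing of shared function.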

How the data were processed

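HNRNPA2B1 eCLIP peak lists of 4 IP libraries were analysed, 2 per state. According to the study's methods, reads from repetitive elements were filtered, the rest were aligned to mm9 with STAR (version not stated), PCR duplicates were removed and peaks were called with CLIPper. Whether the repeat filter took 7SK reads is not given in the sources used here. Each list is of 1 replicate and has 6 columns without a header. The authors deposited a −log10 p of IP against size-matched input for each peak, with or without Bonferroni correction, and a log2 fold enrichment. The lists begin at a −log10 p of 5.00. They hold no read counts, so depth is unknown, and a stretch without a peak was below the threshold and may still be bound.

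Coordinates are counted from 1. The member and the tests were chosen with earlier results of these data known. States were compared over libraries by the exact two-sided permutation test. The text gives every Rn7sk peak and the 3 loci nearest in top log2 fold enrichment. Replicates are labelled as separate samples of a state. Simulated lists kept the peak numbers (594, 591, 1499 and 1211) and widths, with the peaks set far apart on 1 strand. In them the overlap functions placed 100% of peaks correctly. Touching peaks and small shifts of peak ends were not simulated for overlap. Tools were scipy 1.17.1, numpy 2.4.6, pandas 2.3.3, matplotlib 3.10.9 and Python 3.11.15.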

Additional observations from a re-analysis of the deposited data

How the results depend on the processing

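A −log10 p of at least 8 and counting peaks that only overlap the window removed or added no Rn7sk peak. The difference in covered length, C2C12diff minus C2C12, stayed positive under 7 alternatives (12 to 26 nt). That in top log2 fold enrichment did so under 9 (0.65 to 1.00) and that in length-weighted log2 fold enrichment under 10 (0.11 to 0.54). Leaving out 1 library could not reverse these, since both C2C12diff values lay above both C2C12 values. The other alternatives for the top value used the same peaks and returned the same 0.83. Its sign was therefore fixed in advance under all 9. The length-weighted difference was 0.20 as an unweighted mean over peaks (exact permutation p = 0.667) and 0.27 over the nucleotides covered in all 4 lists, an alternative chosen after seeing the data. It was 0.11 without C2C12diff replicate B and 0.54 without C2C12diff replicate A. The difference in peak number ran from -2.0 without C2C12 replicate A to 1.0 without C2C12 replicate B, and was 0 once touching peaks were joined. Replicate agreement fell to 15.4% in C2C12 and 16.7% in C2C12diff, and agreement between states to 21.8%, when identical ends were required. Over all peaks of the lists, identical ends made up 17.2% and 5.17% between replicates and 4.88% to 6.50% between states. Counted as overlapping peaks, C2C12diff replicates and the states each agreed at 100%, where the peaks of a list are divisions of 1 unbroken stretch. At a minimum log2 fold enrichment of 1, which leaves out the weak 5′ peaks, C2C12diff replicates shared 73.6% of nucleotides. Leaving out a C2C12diff replicate gave 78.3% to 88.7% between states. The labels do not state that equal letters mark a shared batch. With the letter as a replicate block, added after seeing the data, the paired differences were 0.63 (A) and 1.03 (B) in top log2 fold enrichment, mean 0.83, and 0.12 and 0.52 in the length-weighted value, mean 0.32. The exact sign-flip p was 0.5 for each, the smallest that 2 pairs allow. Depth was not known, so the precision of each enrichment value is not known either.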
